A study of Homo sapiens with 6 samples.

Results

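The BCL2 family of apoptosis regulators was examined through 10 of its genes, which were found by their symbols among the 60651 genes of each table. *BCL2*, *BCL2L1*, *BCL2L2* and *MCL1* oppose cell death, *BAK1* carries it out, and *BCL2L11*, *BID*, *BAD*, *BMF* and *HRK* promote it. RNA came from 6 samples of human neuroblastoma cells. The titles of 3 gave ethanol (EtOH), and those of the other 3 tetracycline (Tet), given for 5 days per the protocol. The libraries were made from total RNA after enzymatic removal of ribosomal RNA. The titles pointed to the line IMR-5/75. The protocol instead described SK-N-SH cells, kept as single clones under G418 and blasticidin, in which tetracycline relieves a repressor and turns on a *MYCN* transgene. A tag read Control for EtOH and Induction for Tet under the heading of a knockdown, and the study describes both SK-N-AS cells with inducible *MYCN* and IMR-5/75 cells in which a hairpin RNA against *MYCN* can be induced. Groups were therefore named by their titles only. The labels do not say whether replicates were separate cultures, while the study states biological replication for its cell experiments in general. The p-values measure the spread between these libraries.

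Proteins of the BCL2 family decide whether the outer membrane of mitochondria is opened, the step that releases cytochrome c and starts the caspases. Pro-survival members hold the pore-forming proteins BAX and BAK in check, and BH3-only members free or activate these effectors by placing a short helix, the BH3 domain, in a groove of their partners. Neuroblastoma cells are known for high *BCL2* or *MCL1*, and MYC proteins are known to sensitise cells for apoptosis.

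The stretch shared by all 10 proteins is the core of the BH3 domain, the contact on which the opposition of the roles rests. In each member, exactly 1 match was found in the protein to a leucine or methionine, 2 residues of any kind, a hydrophobic residue, a small residue, aspartate, 1 residue of any kind and a hydrophobic residue. The 24 coding bases are given for the leading members of each role, 5′ to 3′ on the coding strand, from the Ensembl canonical transcripts of GENCODE release 44 on GRCh38. Capitals mark the codon of the first leucine and the codons of the small residue and the aspartate.
MCL1: TTAcgacgggttGGGGATggcgtg
BCL2: CTCcgccaggccGGCGACgacttc
BAK1: CTCgccatcatcGGGGACgacatc
BCL2L11: TTGcggcgtattGGAGACgagttt
BID: CTCgcccaggtcGGGGACagcatg
HRK: CTCaaggcgctaGGCGACgagctg
These lie at chr1:150578871-150578894 in exon 1 of *MCL1*, chr18:63318355-63318378 in exon 2 of *BCL2*, chr6:33575393-33575416 in exon 4 of *BAK1*, chr2:111150103-111150126 in exon 3 of *BCL2L11*, chr22:17739421-17739444 in exon 4 of *BID* and chr12:116881176-116881199 in exon 1 of *HRK*. All are on the minus strand except *BCL2L11*, which is on the plus strand. Over the 45 pairs of the 10 members, the cores shared between 7 and 17 of the 24 bases, with a median of 12. The 17 bases were shared by 4 pairs, *BAK1* with *BID*, *BCL2* with *BCL2L1*, *BCL2L1* with *HRK* and *BCL2L11* with *BAD*, so that pairs within a role and across roles reached this number. *MCL1* shared 13 with *BCL2* and 14 with *BCL2L11*.

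The libraries held between 27933378 and 40498065 counts, and 3 counts corresponded to between 0.0755 and 0.108 CPM, counts divided by the library total after TMM scaling. Of 8 noradrenergic neuroblastoma markers, 6 had a mean of at least 1 CPM, whereas *TH* had 1 count over all libraries and *DBH* 35.5. None of 5 immune and none of 3 endothelial markers reached 1 CPM, and *COL1A2*, *CD3E* and *VWF* had no count. Of 7 mesenchymal markers, 5 reached 1 CPM, and *PDGFRA*, at 96.5 ± 2.15 CPM in EtOH and 49.3 ± 4.85 CPM in Tet (SD, n = 3 each), passed the test (edgeR adjusted p = 0.0464). The summed level of the noradrenergic list was 621.5 to 680.5 CPM in EtOH and 685.5 to 833.3 CPM in Tet, without overlap. No gene of that list passed the test. The sum of the mesenchymal list was 152 to 181 CPM in EtOH and 127 to 185 CPM in Tet. That of 8 proliferation markers, all above 1 CPM, was 1586 to 2369 CPM in EtOH and 1382 to 1766 CPM in Tet. The part of these lists in the members' values was not tested. *MYCN* itself had 158, 256 and 156 CPM in EtOH 1, 2 and 3 and 196.6, 200.1 and 145.4 CPM in Tet 1, 2 and 3, a log2 fold change of -0.07 (SE 0.23, interval -0.60 to 0.46, edgeR adjusted p = 0.956). No change in the RNA of the gene that the system was built to regulate was detected between the labels. For both of its inducible models, the study reports the change of MYCN protein by western blot, which RNA counts do not show. For the SK-N-AS model with inducible *MYCN*, it also reports a rise of *MYCN* RNA, by qRT-PCR and RNA sequencing. No such rise was detected between these labels. For the knockdown model, its methods name western blot only. Replicate 2 of both groups stood apart from the other libraries on the first principal component. The scores were 84.2 for EtOH 2 and 47.3 for Tet 2, against scores between -55.0 and -1.81. Values without these libraries are given beside some of the results, and ranges with 1 library left out are given further below. The mitochondrial genome took between 4.12% of counts, in EtOH 2, and 10.01%.

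*MCL1* was by far the most abundant member in every library. In TPM, the level per exon length scaled to a common total, it took between 81.98% and 91.3% of the summed level of the 10 genes and ranked 155th of 60651 genes by mean TPM. Its mean over the 6 libraries was 19.3 times that of *BCL2*. *BCL2* held the second place and *BCL2L11* the third in 6 of 6 libraries. *BCL2* was 1.34 times *BCL2L11* by mean TPM, and although their ranges overlapped across libraries, *BCL2* was the higher within each.

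Below these, the order was closer. *BCL2L2*, with 5.86 ± 1.53 TPM (SD, n = 6), was above *BID*, with 4.61 ± 1.03 TPM, in 4 of 6 libraries, so that these neighbours did not differ beyond their spread. *BID* was above *HRK*, with 2.99 ± 0.990 TPM, in 5 of 6 libraries, and *HRK* was above *BCL2L1*, with 1.40 ± 0.426 TPM, in 6 of 6. *BAK1*, *BMF* and *BAD* had means of 0.379, 0.353 and 0.315 TPM, changed places between libraries and could not be ordered.

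**Figure D1:**
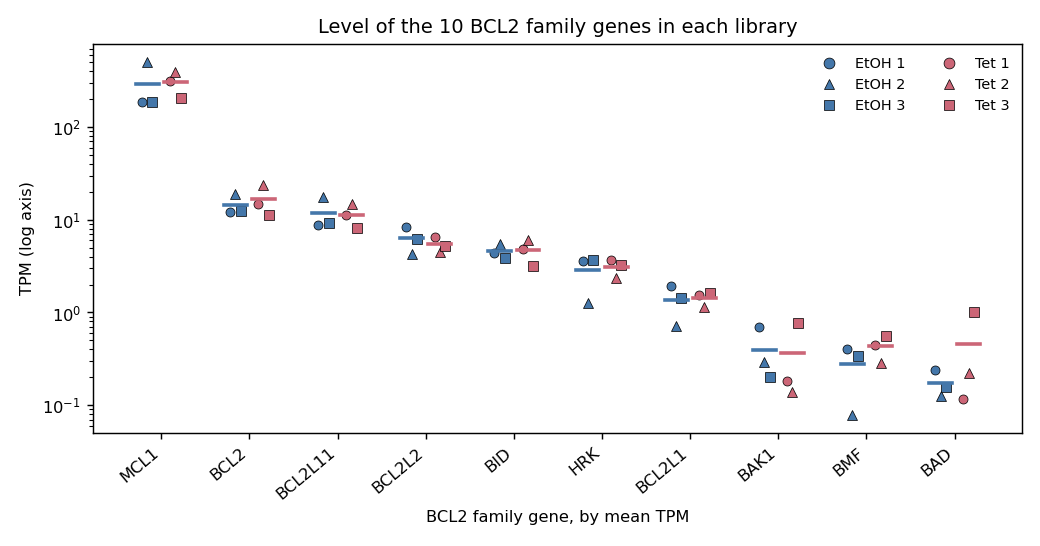
Level of each of the 10 BCL2 family genes in TPM (log axis), ordered by mean; each point is 1 library, with shape for the replicate number and colour for the group, and horizontal bars are group means. MCL1 lies apart at 184 to 508 TPM, BAK1, BMF and BAD lie near or below 1 TPM, and the EtOH and Tet points overlap for every gene.

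The main comparison asked whether the libraries labelled Tet differed from those labelled EtOH. Reads were counted per gene, scaled to CPM and compared by the quasi-likelihood test of edgeR over 22443 genes, with Benjamini-Hochberg adjustment. Of the 10 members, 8 had enough counts to be tested, and 0 passed an adjusted p of 0.05 in either direction. Of all genes tested, 0.236% did so, 0.147% as higher and 0.0891% as lower in Tet. With an unadjusted p under 0.05 the count was also 0, where 10.8% of all genes tested passed, and DESeq2 and limma-voom likewise gave 0 with either p. The groups did not separate for any of the 8, where the groups did not overlap for 17.5% of all genes tested. The median log2 fold change was 0.13 over the 8 members and -0.01 over all genes tested. In bulk RNA, fewer cells with a transcript and less of it per cell cannot be told apart.

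**Figure D2:**
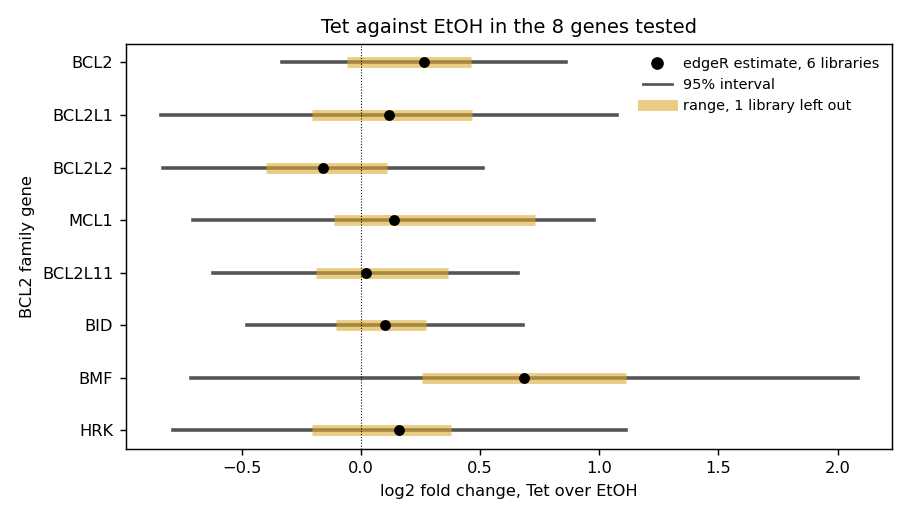
log2 fold change (Tet over EtOH) of the 8 members tested, with the edgeR estimate from 6 libraries (points), its 95% interval (lines) and the range of the estimate when 1 library at a time was left out (bands). Every interval includes 0, and the bands of all members except BMF cross 0.

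Among the pro-survival members, *MCL1* (ENSG00000143384.14, chromosome 1, 150560895 to 150579738, minus strand), a short-lived guardian that binds BAK and the BH3-only proteins BIM and NOXA, had the highest level of the 4. It had 425, 1070.0 and 429.6 CPM in EtOH 1, 2 and 3 and 697, 890.1 and 529 CPM in Tet 1, 2 and 3. EtOH 2 was the highest of all 6 libraries, and each Tet library was above both of the other EtOH libraries. The means were 642 ± 371 CPM in EtOH and 705 ± 180.6 CPM in Tet (SD, n = 3 each), a log2 fold change of 0.14 (SE 0.37, 95% interval -0.71 to 0.98, edgeR adjusted p = 0.947). EtOH 2 decided this value. Without it, the log2 fold change was 0.73 (interval 0.27 to 1.19, unadjusted p = 0.00576, edgeR adjusted p = 0.0905), and without replicate 2 of both groups, a setting added after seeing the data, it was 0.53 (interval 0.19 to 0.86, unadjusted p = 0.00639, edgeR adjusted p = 0.0886). Without EtOH 1, EtOH 3 or Tet 2, it lay between -0.11 and -0.07. No adjusted p passed the threshold, and the direction for *MCL1* was therefore not settled by these libraries.

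*BCL2* (ENSG00000171791.14, chromosome 18, 63123346 to 63320128, minus strand), the founding member of the family and the target of venetoclax, had 56.7, 80.9 and 57.1 CPM in EtOH 1, 2 and 3. Its level was 66.0, 109.4 and 58.4 CPM in Tet 1, 2 and 3. Replicate 2 was the highest in each group, and Tet 3 lay close to EtOH 1 and EtOH 3. The log2 fold change was 0.26 (SE 0.26, interval -0.33 to 0.86, edgeR adjusted p = 0.803), and it was -0.06 without Tet 2. With the interval reaching from a 0.33 decrease to a 0.86 increase on the log2 scale, neither a moderate fall nor a rise could be told from no change at this replication.

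*BCL2L1* (ENSG00000171552.14, chromosome 20, 31664452 to 31723989, minus strand), whose long isoform BCL-XL protects cells, had 3.01, 1.01 and 2.22 CPM in EtOH and 2.27, 1.75 and 2.77 CPM in Tet. EtOH 2 was the lowest library and EtOH 1 the highest, so that the Tet values lay inside the EtOH range. It differed by 0.12 on the log2 scale (SE 0.42, interval -0.84 to 1.07, edgeR adjusted p = 0.964). *BCL2L2* (ENSG00000129473.11, chromosome 14, 23298790 to 23311751, plus strand), which encodes the pro-survival protein BCL-W, had 15.04, 6.96 and 11.1 CPM in EtOH and 11.1, 8.07 and 10.5 CPM in Tet. The Tet values again lay inside the EtOH range, and the log2 fold change was -0.16 (SE 0.30, interval -0.83 to 0.51, edgeR adjusted p = 0.911). Gene counts do not separate BCL-XL from the short, pro-death isoform of *BCL2L1*.

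The effector member *BAK1* (ENSG00000030110.13, chromosome 6, 33572547 to 33580293, minus strand), which forms pores in the mitochondrial membrane, was too low for the test. It had 20.5, 6 and 5 counts in EtOH 1, 2 and 3 and 4, 4 and 27.5 counts in Tet 1, 2 and 3, in all 67 counts. EtOH 1 and Tet 3 were the high libraries of their groups, and the groups overlapped. In a fit with no filter on low counts, the log2 fold change was 0.03 (SE 0.75 and edgeR adjusted p = 0.995). An error of this size leaves large changes in either direction undetectable at this depth.

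The BH3-only members lay between 0.0709 and 39.6 CPM. *BCL2L11* (ENSG00000153094.24, chromosome 2, 111119378 to 111168445, plus strand), which encodes BIM, a BH3-only protein able to engage every pro-survival member, was the most abundant of them. It had 21.5, 39.6 and 22.4 CPM in EtOH 1, 2 and 3 and 26.6, 35.8 and 22.3 CPM in Tet 1, 2 and 3. Replicate 2 was the highest in each group and replicates 1 and 3 were alike across groups. The log2 fold change was 0.02 (SE 0.28, interval -0.62 to 0.66, edgeR adjusted p = 0.991). Without EtOH 2 it was 0.37 (interval -0.10 to 0.84, edgeR adjusted p = 0.357).

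*BID* (ENSG00000015475.19, chromosome 22, 17734138 to 17774770, minus strand), which caspase-8 cleaves and which thereby links death receptors to mitochondria, lay between 5.81 and 9.73 CPM. It had 7.14, 8.19 and 6.22 CPM in EtOH and 7.55, 9.73 and 5.81 CPM in Tet. The highest and the lowest library were both Tet, and the log2 fold change was 0.10 (SE 0.25, interval -0.48 to 0.68, edgeR adjusted p = 0.942). *HRK* (ENSG00000135116.9, chromosome 12, 116856144 to 116881441, minus strand), a BH3-only gene known for its expression in neurons, had 9.21, 2.92 and 9.39 CPM in EtOH and 8.97, 5.95 and 9.19 CPM in Tet. Its 4 libraries of replicates 1 and 3 lay close together and both replicate 2 libraries lay below them. The estimate for *HRK* was 0.16 (SE 0.42, interval -0.79 to 1.11, edgeR adjusted p = 0.945) on the log2 scale with all libraries and -0.03 (interval -0.44 to 0.38) without replicate 2 of both groups.

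*BMF* (ENSG00000104081.14, chromosome 15, 40087890 to 40108892, minus strand), which senses detachment from the cell skeleton, had 0.837, 0.144 and 0.661 CPM in EtOH and 0.851, 0.564 and 1.26 CPM in Tet. EtOH 2 was the lowest library, with 4 counts, and Tet 3 the highest, with 50. Its log2 difference of 0.69 was the largest of the 8 members tested, with the largest error (SE 0.61, interval -0.71 to 2.08, edgeR adjusted p = 0.774). It was positive in every fit that left out 1 library, between 0.26 without EtOH 2 and 1.11. *BAD* (ENSG00000002330.14, chromosome 11, 64269830 to 64284704, minus strand), a BH3-only protein held inactive by growth factor signals, had 5.5, 2 and 3 counts in EtOH and 2, 5 and 28.5 counts in Tet. Only Tet 3 stood out, 4 of the other 5 libraries were at or below 5 counts, and *BAD* was not tested in the main comparison. With no filter, its log2 fold change was 1.41 (SE 0.88, unadjusted p = 0.123, edgeR adjusted p = 0.731).

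Replicate 2 stood at one end of its group for every tested member, a pattern described after the values were seen. In each of the 8 tested members, replicate 2 was the highest library of both groups or the lowest of both groups. This order was found in 53.5% of all genes tested. It was the highest in both for *BCL2*, *MCL1*, *BCL2L11* and *BID* (24.7% of all genes tested), and the lowest in both for *BCL2L1*, *BCL2L2*, *BMF* and *HRK* (28.7%), so that each direction held members of both roles. Against the mean of replicates 1 and 3 in log2(CPM + 0.5), EtOH 2 was higher by 1.32 for *MCL1*, 0.83 for *BCL2L11*, 0.50 for *BCL2* and 0.28 for *BID*. Tet 2 was higher by 0.55, 0.55, 0.81 and 0.52 for the same genes. For *HRK* the difference was -1.52 in EtOH and -0.57 in Tet.

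The base composition of the exons moved with this split in part. The members high in replicate 2 had exons of 43.3% GC (*BCL2*), 45.5% (*MCL1*), 46.9% (*BCL2L11*) and 52.99% (*BID*), and those low in it had 49.9% (*HRK*), 53.1% (*BCL2L2*), 55.2% (*BMF*) and 57.8% (*BCL2L1*). *HRK* and *BID* went against this order. Over all genes tested, the median difference of EtOH 2 from EtOH 1 and 3 was 0.33 below 40% GC and -0.36 from 55% to below 60%. For genes from 45% to below 50% GC, where *MCL1*, *BCL2L11* and *HRK* lie, it was -0.22 in EtOH and -0.11 in Tet. *MCL1* and *BCL2L11* lay above these medians and *HRK* below them in both groups. The part of base composition in the members' values was not tested beyond a fit that corrected for GC content, added after seeing the data, in which 0 of the 8 members passed the threshold. In that fit the log2 fold change was 0.12 for *MCL1*, 0.044 for *BCL2L1*, -0.085 for *BCL2L2* and 0.26 for *HRK*, and over the 8 members it lay between -0.085 and 0.70.

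**Figure D3:**
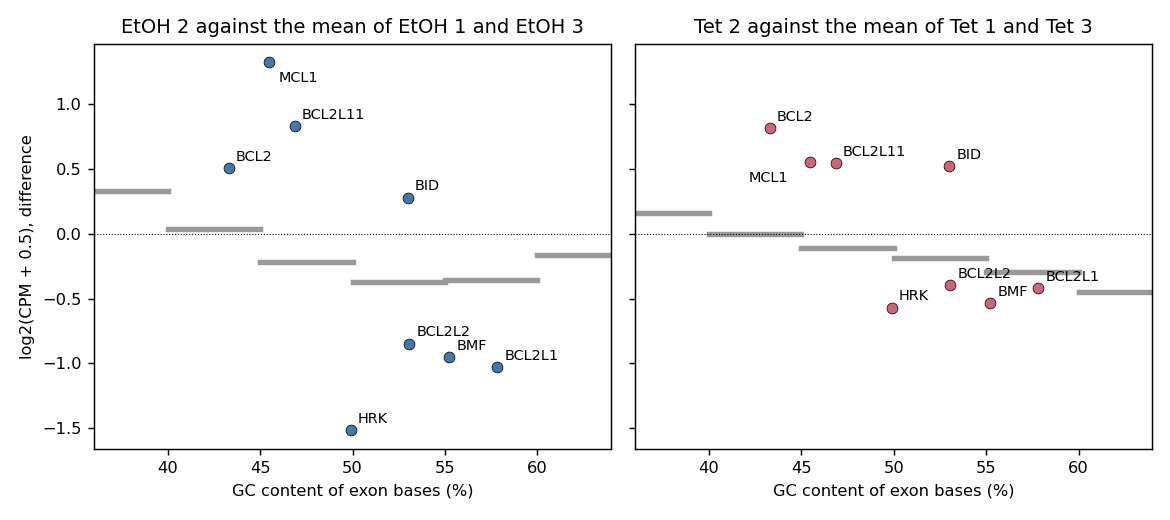
Difference of replicate 2 from the mean of replicates 1 and 3 of its group, in log2(CPM + 0.5), against the GC content of the exon bases, for the 8 members tested; grey bars are the medians of all genes tested in each range of GC content. BCL2, MCL1, BCL2L11 and BID lie above 0 and HRK, BCL2L2, BMF and BCL2L1 below 0 in both groups.

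GC content also went with the level of the members. Of protein-coding genes with exons under 40% GC, 74.5% had a mean of at least 1 TPM, against 29.5% from 55% to below 60% GC and 12.4% from 60% up. *BAK1* (58.8% GC), *BMF* and *BCL2L1* fall in the former of these high ranges and *BAD* (64.7% GC) in the latter, and all but *BCL2L1* had a mean under 1 TPM. In Tet 3, the library in which *BAK1*, *BAD* and *BMF* were highest, genes from 60% GC up had a median 0.89 above the mean of Tet 1 and 2 in log2(CPM + 0.5). The part of GC content in the low levels of *BAK1*, *BAD* and *BMF* was not tested, and these levels are given as measured.

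Several members share exon bases with other genes, and reads there were divided evenly without use of the strand. For *BCL2L1*, 41.3% of exon bases lie inside the antisense RNA *ABALON*, which itself had 1.09 ± 0.536 CPM in EtOH and 0.973 ± 0.393 CPM in Tet (SD, n = 3 each). *BCL2L2* shares 16.8% with the read-through gene *BCL2L2-PABPN1*, at 29.1 ± 1.84 CPM in EtOH and 35.8 ± 10.8 CPM in Tet, and 6.51% with *PPP1R3E*. In a further fit, the whole counts of such partners, not only those on shared bases, were summed into each member. The log2 fold change of *BCL2L2* then turned from -0.16 to 0.11 (edgeR adjusted p = 0.92). *BCL2L2-PABPN1*, more abundant than *BCL2L2*, had a log2 fold change of 0.30 of its own and weighs on this sum. The sum therefore cannot decide the direction of *BCL2L2*, and its level and direction are uncertain. The log2 fold change of *BCL2L1* went from 0.12 to 0.022 (edgeR adjusted p = 0.994). *BAD* shares 23.7% with *GPR137*, which was highest in Tet 3 too, at 1.56 CPM against 0.367 to 0.577 CPM elsewhere. *BCL2L11* shares 13.8% with *MIR4435-2HG* and *ACOXL*, *BMF* 8.46% with *BMF-AS1*, *MCL1* 5.27% with *ADAMTSL4-AS1*, a part of it also with *ADAMTSL4*, and *BAK1* 4.11% with *GGNBP1*. *BCL2*, *BID* and *HRK* share none.

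The balance of the roles was described as the summed TPM of the 4 pro-survival members over that of the 6 pro-death members. It leaves out *PMAIP1*, a BH3-only gene that is not a member. *PMAIP1* had 74.2 to 161 TPM, against at most 17.6 TPM for *BCL2L11*, the most abundant pro-death member. Counting it as pro-death would lower the ratio in every library, so the size of the ratio depends on the members chosen. A ratio with *PMAIP1* was not computed. The ratio of the members was 11.4, 21.5 and 11.9 in EtOH 1, 2 and 3 and 16.5, 17.7 and 13.3 in Tet 1, 2 and 3. EtOH 2 was the highest and EtOH 1 and 3 the lowest, with all Tet libraries between them. The group means were 14.9 ± 5.65 in EtOH and 15.8 ± 2.29 in Tet (SD, n = 3 each). On the log2 scale the Tet mean was 0.13 above the EtOH mean, less than the pooled SD of 0.39. *MCL1* set this ratio. With *MCL1* and *BCL2L11*, the most abundant member of each role, left out, the log2 ratio was 1.42 ± 0.262 in EtOH and 1.35 ± 0.332 in Tet, and the sign of the difference turned to -0.08. The ratio of *BCL2* to *BCL2L11*, the most abundant members after *MCL1*, lay between 1.08, in EtOH 2, and 1.61, in Tet 2.

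**Figure D4:**
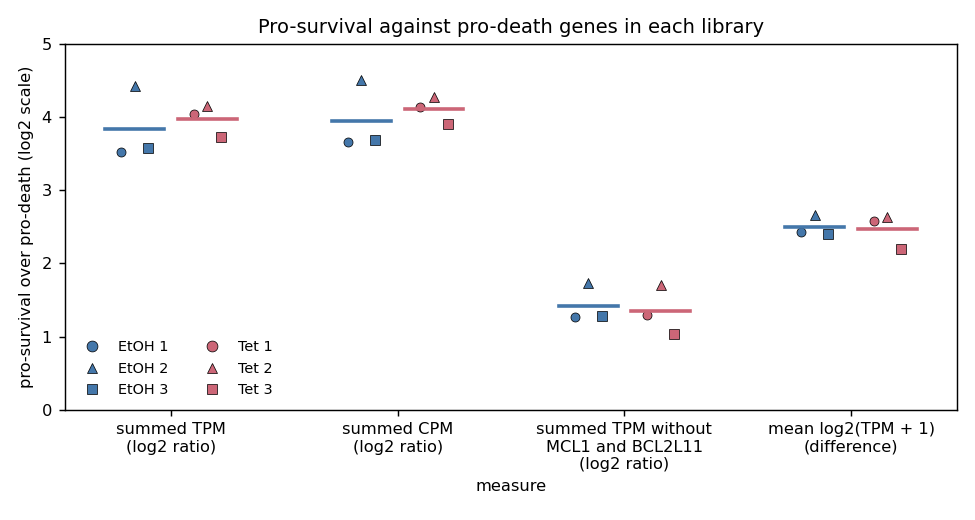
Pro-survival over pro-death members in each library by 4 measures: the log2 ratio of summed TPM, the same with CPM, the same without MCL1 and BCL2L11, and the difference of mean log2(TPM + 1). PMAIP1 is not a member and is not counted. Points are libraries and bars group means; by each measure the EtOH and Tet points overlap, and EtOH 2 is the highest library.

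Another 13 genes of the family were read beside the members. *BAX*, the second pore-forming effector, was low, between 0.831 and 2.54 TPM, with 1.03, 1.08 and 0.826 CPM in EtOH and 0.993, 0.790 and 2.69 CPM in Tet. Tet 3 alone stood out, *BAX* exons have 60.7% GC, and its log2 fold change of 0.61 (SE 0.50 and edgeR adjusted p = 0.746) was -0.14 without Tet 3, 1.002 without replicate 2 of both groups and 0.16 with the GC correction. *BOK*, the remaining effector gene, did not exceed 0.0709 CPM in any library. *BCL2A1*, *BCL2L10*, *BBC3*, which encodes PUMA, and *BIK* were also too low for the test, and *BCL2L14* had no count.

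*PMAIP1*, which encodes NOXA, the BH3-only partner of *MCL1*, lay above every BH3-only member in each library, at 74.2 to 161 TPM against at most 17.6 TPM for *BCL2L11*. It had 60.1, 119.5 and 68.4 CPM in EtOH 1, 2 and 3 and 92.6, 101.5 and 123.9 CPM in Tet 1, 2 and 3. Apart from EtOH 2, each Tet library was above the EtOH libraries. The log2 fold change was 0.36 (SE 0.26, interval -0.24 to 0.96, edgeR adjusted p = 0.706) with all libraries. Without EtOH 2 it was 0.73 and passed the threshold (edgeR adjusted p = 0.0481), as it did without replicate 2 of both groups, at 0.76 (edgeR adjusted p = 0.041). It was 0.15 without EtOH 1, 0.21 without EtOH 3 and 0.24 without Tet 3 (edgeR adjusted p = 0.947, 0.984 and 0.873). The ratio of *MCL1* to *PMAIP1* in TPM lay between 1.501, in Tet 3, and 3.15, in EtOH 2, with means of 2.61 ± 0.483 in EtOH and 2.41 ± 0.815 in Tet (SD, n = 3 each).

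Across the 5 lists of other apoptosis genes, 56 genes in all, 45 could be tested and 0 passed the threshold in either direction, while 4 had an unadjusted p under 0.05, beside 0.236% and 10.8% of all genes tested. DESeq2 and limma-voom likewise called 0. The groups did not overlap for 7 of the 45, 5 higher and 2 lower in Tet, beside the 17.5% of all genes. The 4 with an unadjusted p under 0.05 were among the partners and regulators of the members, namely *VDAC1*, *BAG1*, *DYNLL1* and *YWHAE*. The median log2 fold change over the 45 was 0.11. By list, the medians were 0.11 for the other BCL2 family genes, 0.11 for the apoptosome and caspases, 0.09 for the inhibitors of apoptosis, 0.26 for the death receptor pathway and 0.06 for the partners and regulators.

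*VDAC1*, the mitochondrial channel to which BCL-XL and *MCL1* bind, had the lowest p of the lists. It had 104.1, 122.8 and 99.9 CPM in EtOH and 80.7, 77.96 and 70.1 CPM in Tet. All Tet libraries were below all EtOH libraries, and the log2 fold change was -0.51 (SE 0.15, unadjusted p = 0.008, edgeR adjusted p = 0.247). *BAG1*, a chaperone partner of *BCL2*, had 14.2, 11.7 and 15.6 CPM in EtOH and 24.6, 18.1 and 21.0 CPM in Tet, with no overlap (log2 fold change 0.62, SE 0.20, edgeR adjusted p = 0.297). *DYNLL1*, the light chain that tethers BIM, and *YWHAE*, a 14-3-3 protein, had log2 fold changes of 0.45 and 0.80 (edgeR adjusted p = 0.46 and 0.362).

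In the death receptor pathway, *CASP8*, the protease that cleaves *BID*, had 2.12, 3.43 and 2.22 CPM in EtOH and 3.62, 4.400 and 3.80 CPM in Tet, with no overlap. Its log2 fold change was 0.61 (SE 0.29 and edgeR adjusted p = 0.509), and that of the receptor *FAS* 0.77 (SE 0.40 and edgeR adjusted p = 0.558), with 40.6% of *FAS* exon bases inside other genes. With 1 library left out, *FAS* lay between 0.47, without Tet 2, and 1.24, without EtOH 2 (edgeR adjusted p = 0.0825). Among the caspases, *CASP6* did not overlap between the groups, at 5.92 ± 0.413 CPM in EtOH and 7.45 ± 0.249 CPM in Tet (SD, n = 3 each), with a log2 fold change of 0.33 (SE 0.20 and edgeR adjusted p = 0.626). *HTRA2*, a mitochondrial protease, had a log2 fold change of -0.63 (SE 0.50 and edgeR adjusted p = 0.731), with 24.6% of its exon bases inside other genes. This value lay between -1.03, without EtOH 2, and -0.39, without EtOH 1, when 1 library was left out. Of the inhibitors of apoptosis, *BIRC2* and *BIRC5*, which encodes survivin, had values of 0.15 (SE 0.22) and -0.21 (SE 0.32), with edgeR adjusted p of 0.881 and 0.882. With 1 library left out, *BIRC2* lay between 0.017, without EtOH 1, and 0.39, without EtOH 2, and *BIRC5* between -0.41, without EtOH 1, and 0.11, without EtOH 2.

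**Figure D5:**
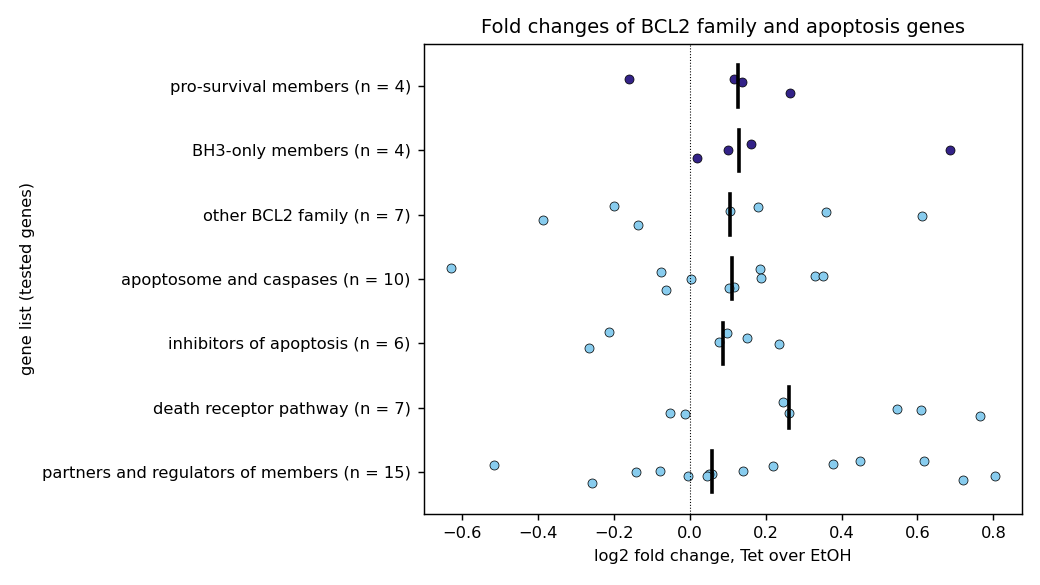
log2 fold change (Tet over EtOH) of each tested gene of the BCL2 family and of the apoptosis lists; each point is a gene, dark for members and light for other genes, placed at random heights within its list, and vertical bars are medians. Medians of the lists lie between 0.06 and 0.26, and no gene shown passed the threshold.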

How the data were processed

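Gene-level RNA sequencing was analysed in 6 libraries, 3 labelled EtOH and 3 labelled Tet. Per the file headers, the authors counted uniquely aligned read pairs over exons with featureCounts 1.6.4, dividing a pair evenly among overlapping genes and not using the strand, and deposited estimated counts with no scaling. Their processing notes name STAR 2.7.1a, featureCounts 1.5.1 and GRCh38, and the study's methods give other counting options. Between 12.3% and 14.7% of genes had values that were not whole. The planned test assumed whole counts, so these values were rounded.

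Genes were kept with filterByExpr, scaled by TMM and compared, Tet against EtOH, by the two-sided quasi-likelihood test in edgeR 4.0.16 (R 4.3.3). Benjamini-Hochberg adjustment covered every gene tested, and 0.05 was the threshold. SE is the log2 fold change divided by the square root of F, and intervals are at 95%. TPM was computed from counts and exon length. The fit was tested on simulated data, in single draws at first and, after a draw with too many false calls, over pooled draws. The pooled share of false calls was somewhat above the threshold used, so that adjusted p-values just under 0.05 are weak evidence. Few of the genes given the smaller fold change there were recovered. That fold change was larger than the estimate of any member in the main test, so that changes of the members could be missed. Alternatives used DESeq2 1.42.0, limma-voom (limma 3.58.1), other scaling and filters, the replicate number as a block, summed overlapping genes and each library left out. Members and lists were chosen with earlier results of these data known. Named genes were all members, the 2 genes with the lowest p in each of 5 lists, any listed gene past the threshold, *MYCN* and genes sharing exon bases with a member. *DYNLL1*, *YWHAE*, *PDGFRA*, *BOK*, *BBC3* and the other low BCL2 family genes were named after their values were seen. A listed gene is not reported here.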

Additional observations from a re-analysis of the deposited data

How the results depend on the processing

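No member passed the threshold in any of the fits run, with adjusted p between 0.0886 and 0.999 over 144 alternative values of the 8 members tested, of which 16 changed sign. The count over all genes, 53, was 302 with no filter, 499 with DESeq2 and 0 to 692 with 1 library left out, the highest without EtOH 2. Between libraries of the same replicate number, deviations from the group means correlated at 0.06, 0.51 and 0.22. Libraries of unlike numbers were not compared, so whether the numbers pair the libraries was not settled. With a replicate block the count was 675, while 0 members and 0 listed genes passed. In that fit the log2 fold change was 0.25 for *MCL1* (SE 0.17, interval -0.13 to 0.63) and 0.23 for *BCL2* (SE 0.13, interval -0.06 to 0.52), with smaller errors than in the main fit. Of fits added after seeing the data, the GC correction gave 125 genes, the GC correction and replicate block together 1066, and the fit without both replicate 2 libraries 874. Listed pathway genes past the threshold numbered 0 to 1 with 1 library left out (*PMAIP1* without EtOH 2), 1 with the GC correction and replicate block (*BAG1*) and 2 without both replicate 2 libraries (*PMAIP1* among them).

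The cause of the sign changes was not tested. With 1 library left out, log2 fold changes ranged from -0.060 to 0.46 for *BCL2*, -0.20 to 0.47 for *BCL2L1*, -0.40 to 0.11 for *BCL2L2*, -0.11 to 0.73 for *MCL1*, -0.19 to 0.37 for *BCL2L11*, -0.10 to 0.27 for *BID*, -0.21 to 0.38 for *HRK*, -0.14 to 0.92 for *BAX*, -0.41 to 0.11 for *BIRC5* and -0.22 to 0.21 for *MYCN*. Without both replicate 2 libraries, *BCL2L1* was at -0.048, *HRK* at -0.030 and *MYCN* at 0.13, and summing overlapping genes put *BCL2L2* at 0.11. The balance of the roles turned from 0.13 to -0.08 without *MCL1* and *BCL2L11*, and was -0.03 as a difference of mean log2(TPM + 1) and 0.16 with CPM. Depth limits *BAK1* and *BAD*, at 67 and 46 counts in all.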

Other observations

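The mitophagy gene *BNIP3L*, at 397 ± 126.4 CPM in EtOH and 428 ± 44.5 CPM in Tet (SD, n = 3 each), was the most abundant by TPM among the other BCL2 family genes, at 197 to 385 TPM, and its log2 fold change was 0.11 (SE 0.23 and edgeR adjusted p = 0.928).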
